A study of Mus musculus with 12 samples.

Results

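The core factors of nonsense-mediated mRNA decay (NMD) were followed at the gene and the transcript level in livers of mice in which one of them, Upf3b, was targeted with an antisense oligonucleotide (ASO). They were the 10 genes Upf1, Upf2, Upf3a, Upf3b, Smg1, Smg5, Smg6, Smg8, Smg9 and Gspt1. They were chosen by gene symbol and found through their Ensembl transcript identifiers. The 10 genes, of 31114 with a transcript in the annotation, had 43 of the 92468 transcripts quantified in each liver. The 12 livers came from hFIX-R29X mice, in which mouse F9 is deleted and the human transthyretin promoter drives a factor IX minigene with a nonsense codon in hepatocytes. Groups of 4 mice, with 2 females (replicates 1 and 2) and 2 males (replicates 3 and 4) each, received DPBS (phosphate-buffered saline, the vehicle), the scrambled Control-GalNAc-ASO at 15 mg/kg or the Upf3b-GalNAc-ASO at 10 mg/kg. GalNAc, a sugar bound by the asialoglycoprotein receptor of hepatocytes, directs an ASO to these cells. Mice were 8 to 14 weeks old and had 6 doses at intervals of 5 days, with livers taken 48 h after the last dose. The doses of the 2 ASOs differed, so that sequence and dose cannot be told apart between the ASO groups.

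NMD degrades mRNAs on which translation stops early. A stalled ribosome with the release factors eRF1 and eRF3a (GSPT1) meets UPF1, an RNA helicase. UPF2 binds UPF1 and UPF3B, and UPF3B contacts the exon junction complex, a mark that splicing leaves upstream of each exon junction. SMG1, a kinase held in check by SMG8 and SMG9, phosphorylates UPF1. Phosphorylated UPF1 is bound by SMG6, an endonuclease that cuts the mRNA, and by SMG5, an adaptor to further decay. Several mRNAs of these factors are known as NMD substrates themselves, through long 3′ UTRs or upstream reading frames.

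The ASO sequences are shown first because they define which Upf3b isoform was targeted. Both were 16 bases long with a central gap of 10 deoxynucleotides (capitals), at which RNase H1 cuts the paired RNA, and wings of 3 modified bases (lower case). They are the sequences listed by the study for the ASOs without GalNAc.
Upf3b-ASO: ggaTATAGATGTAacg
Control ASO: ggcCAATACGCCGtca
The site complementary to the Upf3b-ASO, with the gap again in capitals, was found once.
Upf3b-201 site: cgtTACATCTATAtcc
It lay in the 3′ UTR of Upf3b-201 (ENSMUST00000076265), at bases 2034 to 2049 of 2344, in exon 10 of 10 (GRCm38, chrX:37091973-37091988, minus strand). Of 90611 transcript sequences searched, no other held this site in full or with 1 mismatch, and 12 transcripts, Upf3b-201 among them, held it with at most 2 mismatches. The control ASO had no site with fewer than 2 mismatches. Only spliced transcripts were searched, so that sites within introns were not examined.

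The other 2 annotated Upf3b transcripts end before this exon. Upf3b-202 (ENSMUST00000130324, 780 bases) is a partial coding transcript and Upf3b-203 (ENSMUST00000133481, 2553 bases) a processed transcript without a reading frame. All 3 share the exon at chrX:37099507-37099689. Upf3b-201 continues into another exon than Upf3b-202 and Upf3b-203, which start their next exon at the same base and differ in its length, shown by the last 15 bases of the shared exon (lower case) and the first 15 of the next (capitals).
Upf3b-201 junction: gaaccaaagattaagTTGCTCAGGAAACCG
Upf3b-202 junction: gaaccaaagattaagGTACACAGGTTTCTG
Upf3b-203 junction: gaaccaaagattaagGTACACAGGTTTCTG
The next exon had 161 bases in Upf3b-201, 39 in Upf3b-202 and 1655 in Upf3b-203. Of their sequence, 1138 bases of Upf3b-201 and 1616 of Upf3b-203 occurred in no other Upf3b transcript, whereas Upf3b-202 had no base of its own, so that reads could be assigned to it only by their junctions and abundance model.

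The depth was 18.5 to 20.39 M (mega) estimated counts in DPBS livers, 17.64 to 18.76 M in control ASO livers and 13.28 to 17.05 M in Upf3b-ASO livers. All 6 hepatocyte markers were detected in every liver, and none of them was called in any comparison (summed level, 39613 to 88040 CPM, counts scaled by TMM library size). Their median log2 fold change was -0.27 against control ASO and -0.25 against DPBS. Only Ttr was above 0 against control ASO and only Asgr1 against DPBS. Alb and Apoa1 were lower in both at an unadjusted edgeR p of 0.011 to 0.031. The sum of all 6, mostly Alb, was 73754 and 77152 CPM in treated females and 84186 to 88040 CPM in the other females. In males it was 39613 and 43944 CPM against 51076 to 69967 CPM. Of the markers of Kupffer, endothelial, stellate, bile duct, lymphoid and red cells, Rgs5 was called, lower in Upf3b-ASO than in control ASO livers, and no other that entered the test. Of the lists for bile duct and lymphoid cells, 0 of 4 and 1 of 5 markers entered it. The part of cell composition in the results below was not tested, and in whole liver fewer cells of a type and less RNA per cell cannot be told apart. Control ASO replicate 3 stood apart, with 22482 CPM summed over 8 acute phase genes against 1496 to 2081 CPM in the other 11 livers. Control ASO replicate 1 had 2992 CPM summed over 5 red cell genes against 211 to 548 CPM in the other 11 livers, and 718 CPM over 6 Kupffer cell genes against 270 to 492 CPM. For 5 of the 10 NMD factors control ASO replicate 3 lay outside the range of the other 11 livers, above it for Upf3a, Smg1 and Smg8 and below it for Upf1 and Upf2. The results that change without replicate 3 are given below.

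The NMD factors spanned about an order of magnitude in length-corrected level. In DPBS livers the mean TPM (length-corrected abundance, gene sum) was 37.5 ± 3.25 (SD, n = 4) for Gspt1, 20.2 ± 5.27 for Smg5, 17.7 ± 1.58 for Upf1 and 12.3 ± 1.62 for Smg1. It was 9.88 ± 1.44 for Smg6, 8.78 ± 1.4 for Upf3a, 6.97 ± 0.692 for Upf3b, 6.59 ± 0.633 for Smg9, 5.31 ± 0.52 for Upf2 and 3.93 ± 0.258 for Smg8. The ranges of neighbours in this order overlapped, except between Gspt1 and Smg5, Upf1 and Smg1, and Upf2 and Smg8. Among these neighbours were the UPF3 paralogs, whose TPM overlapped in vehicle livers. Smg8 reached 5 TPM in 1 of 12 livers, so that 9 of the 10 genes entered the test at the gene level.

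Upf3b-ASO treatment was followed by changes of 3 NMD factor genes. Upf3b and Smg6 fell and Upf2 rose, against both the control ASO and DPBS. These were 3 of 9 members tested, where 10.3% of all 8846 genes tested were called against control ASO (4.34% higher and 5.95% lower) and 8.93% against DPBS (3.57% higher and 5.36% lower). Genes were called at an adjusted p under 0.05 (edgeR quasi-likelihood test, Benjamini-Hochberg). The 2 comparisons share the Upf3b-ASO livers. Upf3b and Smg6 reached 5 TPM in 7 and 8 livers, none of them treated, and so met the expression filter through untreated livers. Their calls, and their ranks and lack of overlap given below, therefore cannot be weighed against all genes tested. Upf3b is also the target of the ASO. By CPM alone, all treated livers lay above all control ASO livers for Upf2 and Smg5 and below them for Upf3b, Smg1 and Smg6, where 7.74% of all genes tested lay above and 7.69% below. Against DPBS this held for Upf2 above (10.4% of all genes) and for Upf3b and Smg6 below (12%). Between control ASO and DPBS it held for Smg1 above (1.29% of all genes) and for no member below (1.66%). The median log2 fold change of the 9 members was -0.01 against control ASO and 0.01 against DPBS, beside -0.02 and -0.00 over all genes. By unadjusted p-value, Smg6 was ranked 9 and 12 of all genes, Upf3b 13 and 16, and Upf2 87 and 229. Between control ASO and DPBS livers, edgeR called none of the 9 members, where 0.0113% of all genes were called. In this comparison Smg1 and Gspt1 had an unadjusted p under 0.05, and DESeq2 and limma also called no member.

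**Figure D1:**
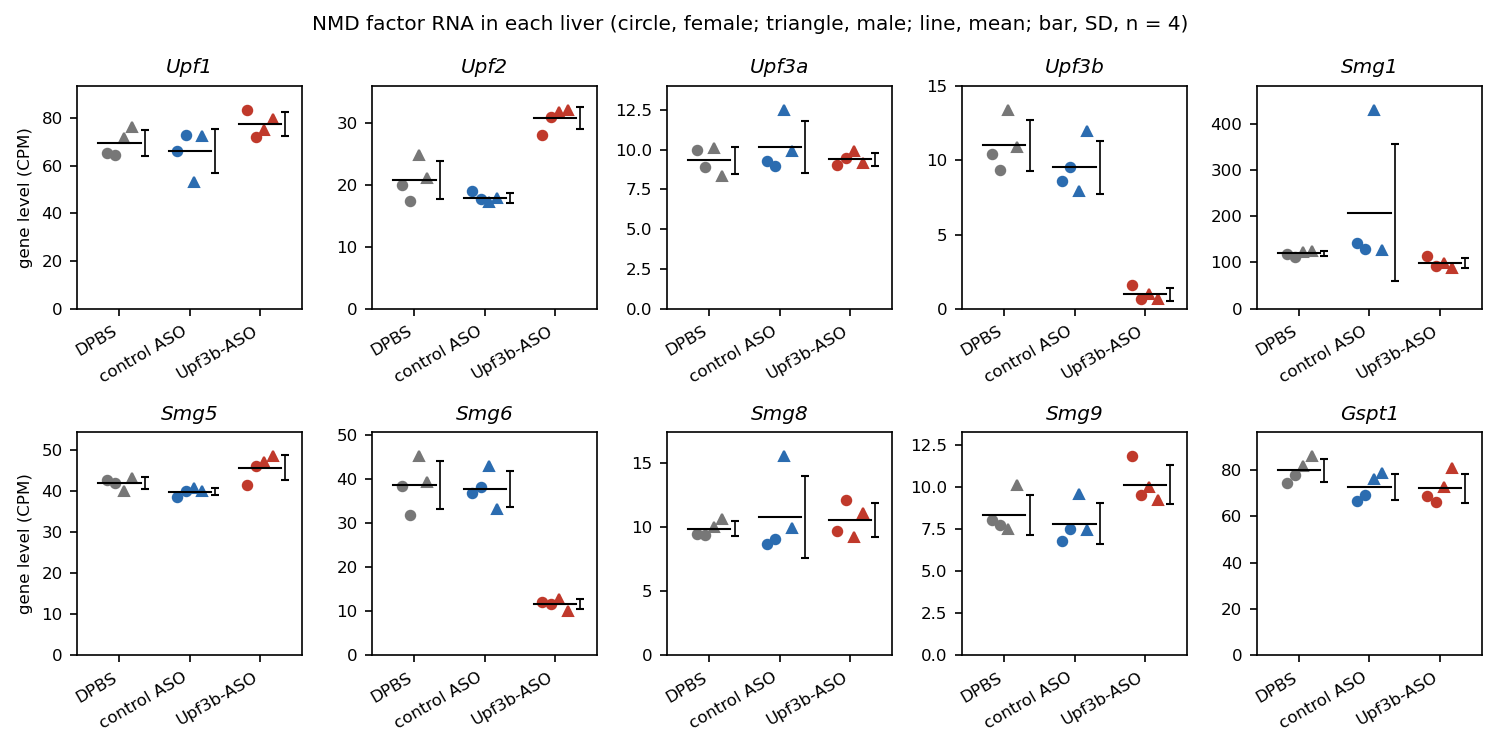
Gene level in CPM (y axis, from 0) of the 10 NMD factors in each of the 12 livers, by group (x axis); circles are females, triangles males, lines the mean and bars the SD (n = 4). The Upf3b-ASO livers lie apart from both other groups for Upf3b (0.651 to 1.58 CPM), Smg6 (10.1 to 12.7) and Upf2 (28.2 to 32.2), and control ASO replicate 3 stands alone for Smg1 at 430 CPM.

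**Figure D2:**
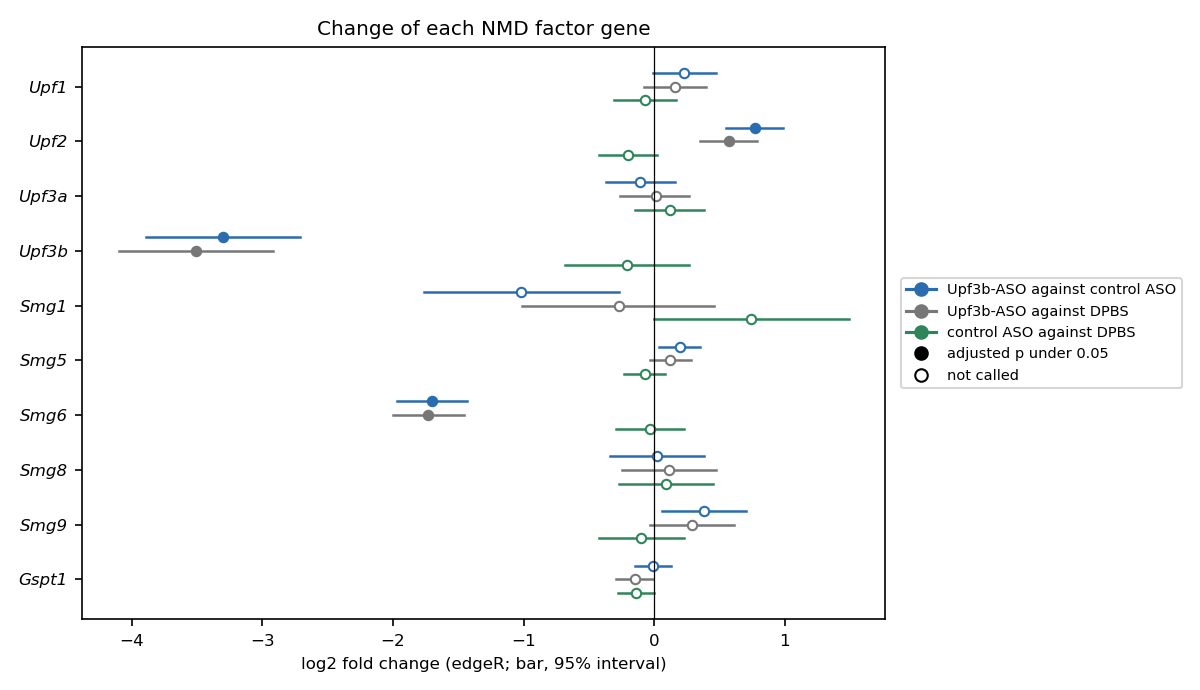
Log2 fold change (x axis) with 95% interval of each NMD factor gene (y axis) in 3 comparisons, from edgeR; filled points have an adjusted p under 0.05. Filled points occur for Upf3b, Smg6 and Upf2 in both Upf3b-ASO comparisons and for no gene between control ASO and DPBS; Smg8 was under the expression filter and its values come from the fit without this filter.

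The fall of Upf3b, which links UPF2 to the exon junction complex, was unequal among its transcripts. The targeted Upf3b-201 was at 155, 145, 161 and 165 estimated counts in DPBS replicates 1 to 4. It was at 121, 127, 74.4 and 162 counts in control ASO replicates and at 3.3, 2.35, 1.37 and 2.24 counts in Upf3b-ASO replicates. Every Upf3b-ASO liver was far below every other liver, at a few reads each. At the gene level the log2 fold change of Upf3b was -3.30 ± 0.27 against control ASO (edgeR adjusted p = 7.4e-05) and -3.51 ± 0.27 against DPBS (edgeR adjusted p = 3.2e-05). Upf3b-201 had a log2 fold change of -5.69 ± 0.35 (SE) against control ASO (edgeR adjusted p = 1.7e-04) and -5.93 ± 0.36 against DPBS (edgeR adjusted p = 1.2e-04). From summed counts scaled to library size, 1.98% of Upf3b-201 was left against control ASO (9 against 484 counts; exact 95% interval, 0.901% to 3.79%).

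Upf3b-203, which lacks the ASO site, was at 27.5, 27.3, 42.5 and 26.8 counts in DPBS livers, at 34, 35.4, 26.6 and 25.1 in control ASO livers and at 18.7, 8.27, 13 and 7.94 in Upf3b-ASO livers. All 4 Upf3b-ASO livers were under all 8 others, but its change did not pass the transcript test. How often groups lay apart in this way over all transcripts was not counted, for this transcript or those below. Its log2 fold change was -1.15 ± 0.40 against control ASO (edgeR adjusted p = 0.29) and -1.07 ± 0.40 against DPBS (edgeR adjusted p = 0.39). From summed counts, 42.3% of Upf3b-203 was left against control ASO (48 against 121 counts; exact 95% interval, 29.6% to 59.5%) and 46.4% against DPBS (32.5% to 65.2%). These intervals, and that of Upf3b-201, cover counting error only. They leave out the spread between mice and the assignment of shared reads to isoforms.

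Upf3b-202 had at most 24.2 counts in a liver, and reached 10 counts in 5 livers, none of them treated. It was at 14.3 to 24.2 counts in DPBS, 2.01 to 13.8 in control ASO livers and 0 to 1.35 under the Upf3b-ASO. Its log2 fold change was -4.60 ± 0.87 against DPBS (edgeR adjusted p = 0.046) and -3.53 ± 0.86 against control ASO (edgeR adjusted p = 0.12). The call against DPBS was lost when any 1 of the livers compared was left out, and without the sex term (edgeR adjusted p = 0.054).

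By the counts assigned to them, the balance of Upf3b transcripts differed between groups. Upf3b-201 held 63.3% ± 5.35 of the gene TPM in DPBS livers, 67.4% ± 8.1 in control ASO livers and 16.1% ± 6.03 in Upf3b-ASO livers (mean ± SD of 4). The share of Upf3b-203 was 11.3% ± 1.49, 16.2% ± 4.42 and 71.7% ± 14.5. It was the leading transcript in the 4 Upf3b-ASO livers and Upf3b-201 in the other 8. In the test of transcript usage (edgeR diffSpliceDGE, gene-level F test), Upf3b had an adjusted p of 4.2e-04 against control ASO and 1.1e-04 against DPBS, and was ranked 4 of 7582 genes in both. It was the only one of the 7 members tested that was called, where 0.58% and 0.462% of all genes were called. Upf3b-201 and Upf3b-202 met the count filter through untreated livers alone, so that this call and rank cannot be weighed against all genes. With the Simes p over the transcripts of the gene, in place of the F test, it was not called (adjusted p = 0.14 and 0.16). In the transcript-level test of diffSpliceDGE no Upf3b transcript passed. The adjusted p was 0.16 and 0.18 for Upf3b-201 and 0.94 and 0.6 for Upf3b-203. What the gene sum gives as Upf3b left in treated livers was thus mostly Upf3b-203, at 69.1% to 86.6% of the Upf3b counts.

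**Figure D3:**
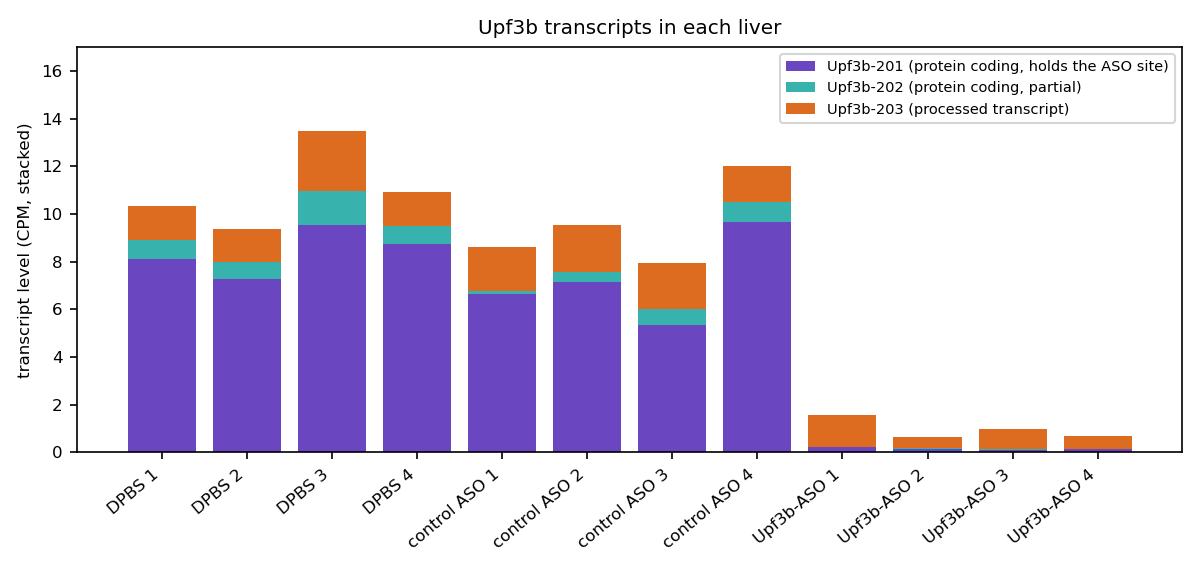
Level of the 3 Upf3b transcripts in CPM (y axis, stacked from 0) in each of the 12 livers (x axis). Upf3b-201, which holds the ASO site, makes up most of each bar in DPBS and control ASO livers and falls to 0.0913 to 0.236 CPM in Upf3b-ASO livers, where most of the short bars is Upf3b-203.

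Upf3a, the autosomal paralog of the X-linked Upf3b, was not called. Its single quantified transcript was at 10, 8.88, 10.1 and 8.32 CPM in DPBS, at 9.29, 8.94, 12.5 and 9.92 CPM in control ASO livers and at 9.03, 9.5, 9.92 and 9.14 CPM under the Upf3b-ASO. The groups overlapped throughout. The log2 fold change was -0.11 ± 0.12 against control ASO (95% interval, -0.37 to 0.16; edgeR adjusted p = 0.59) and 0.01 ± 0.12 against DPBS (-0.26 to 0.27; edgeR adjusted p = 0.98). The closest match of the ASO site in Upf3a-201 had 6 mismatches (capitals), in a coding exon.
Upf3a-201 site: TTtGacGGctatatcT
In treated livers the TPM of the paralogs did not overlap, with Upf3a at 7.22 to 9.99 and Upf3b at 0.278 to 0.815. Nor did it overlap in control ASO livers, with Upf3a at 8.51 to 9.5 and Upf3b at 3.61 to 6.88.

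Upf2, the bridge between UPF1 and UPF3B, rose. It was at 20, 17.5, 24.9 and 21.1 CPM in DPBS, at 19.1, 17.7, 17.2 and 18 CPM in control ASO livers and at 28.2, 31.1, 31.9 and 32.2 CPM under the Upf3b-ASO. All 4 treated livers were above all others. The log2 fold change was 0.77 ± 0.10 against control ASO (70.6% higher; edgeR adjusted p = 1.0e-03) and 0.57 ± 0.10 against DPBS (edgeR adjusted p = 0.0052). The call against DPBS was lost in limma on log2(TPM + 1) (adjusted p = 0.053) and on log2(TPM + 0.1) (adjusted p = 0.058) and with a transcript length offset in edgeR (adjusted p = 0.063). In both comparisons the change, 1.71-fold against control ASO and 1.48-fold against DPBS, was under the cutoff of 2-fold used by the study.

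Most Upf2 reads were assigned to its full-length coding transcript Upf2-201 (ENSMUST00000060092, 5174 bases, chr2:5951469-6056703, plus strand). Upf2-201 was at 18.7, 15.7, 22.2 and 19.1 CPM in DPBS, at 16, 15.6, 14.4 and 17.1 CPM in control ASO livers and at 26, 25.6, 29.6 and 32.1 CPM under the Upf3b-ASO. Its log2 fold change was 0.88 ± 0.13 against control ASO (edgeR adjusted p = 0.015) and 0.60 ± 0.12 against DPBS, which did not pass (edgeR adjusted p = 0.066). The former call was lost without Upf3b-ASO replicate 2 (edgeR adjusted p = 0.05) or 4 (0.059), and DESeq2 called Upf2-201 against DPBS as well (adjusted p = 5.5e-05). The shorter Upf2-202, contained within Upf2-201, held 0% to 26.2% of the gene TPM and its groups overlapped. The usage test gave an adjusted p of 1 for Upf2 in both comparisons. Upf2-201 has an ATG in its 5′ UTR of 103 bases and a 3′ UTR of 1261 bases, and no exon junction more than 50 bases after its stop codon.

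Upf1, the helicase at the centre of the pathway, was not called. It was at 65.5, 64.3, 71.6 and 76.1 CPM in DPBS, at 66.1, 72.8, 53 and 72.4 CPM in control ASO livers and at 83.4, 71.9, 74.9 and 79.5 CPM under the Upf3b-ASO. The groups overlapped, and the lowest value was that of control ASO replicate 3. Its log2 fold change was 0.23 ± 0.11 against control ASO (edgeR adjusted p = 0.2) and 0.16 ± 0.11 against DPBS (edgeR adjusted p = 0.44). Without control ASO replicate 3 the former was 0.13 ± 0.07 (edgeR adjusted p = 0.22). The exons of Upf1 share 68 bases with Cers1 on the opposite strand, and reads from there cannot be told apart without strand.

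Smg1, the kinase of UPF1, was not called by edgeR with all livers, and its level in 1 liver set the size of the difference from control ASO. It was at 119, 112, 123 and 125 CPM in DPBS, at 142, 130, 430 and 128 CPM in control ASO livers and at 113, 93.3, 99 and 87.7 CPM under the Upf3b-ASO. The value of control ASO replicate 3 was 3.23 times the mean of the other 3 control ASO livers. The treated livers were below the control ASO livers and overlapped the DPBS livers. With all livers the log2 fold change was -1.02 ± 0.34 against control ASO (edgeR adjusted p = 0.083) and -0.27 ± 0.33 against DPBS (edgeR adjusted p = 0.69). Without control ASO replicate 3 it was -0.43 ± 0.08 against control ASO, which passed (edgeR adjusted p = 0.004), and without control ASO replicate 4 it was -1.20 (edgeR adjusted p = 0.037). DESeq2 called Smg1 with all livers against control ASO (-1.03, adjusted p = 0.02). Against DPBS it was called in the edgeR fit of these 2 groups alone, which holds no control ASO liver (-0.28, adjusted p = 0.032).

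A pair of long Smg1 transcripts held most of its reads. Smg1-201, the coding transcript of 15557 bases, held 52.6% ± 2 of the gene TPM in DPBS livers, and Smg1-204, which is annotated with the NMD biotype, 20.5% ± 4.05. The share of Smg1-204 was 24.1% ± 4.69 in control ASO livers and 20.4% ± 2.65 under the Upf3b-ASO, with overlapping groups. Over the 12 livers the ratio of Smg1-204 to Smg1-201 counts was 0.209 to 0.449, and it was 0.357 in control ASO replicate 3, so that both transcripts were high in this liver. In its gene model of 12147 bases, no base of Smg1-204 is absent from the other Smg1 transcripts. The quantified transcript had 12340 bases, and whether it held bases of its own was not examined. Its share rests largely on how the reads of shared exons were divided.

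Of the pair that holds SMG1 in check, Smg8 was under the expression filter and Smg9 was not called by edgeR with all livers. Smg8 was at 9.38 to 10.6 CPM in DPBS, 8.69 to 15.5 in control ASO livers and 9.19 to 12.1 under the Upf3b-ASO. Without the expression filter its log2 fold change was 0.02 ± 0.17 against control ASO and 0.11 ± 0.17 against DPBS. Smg9 was at 8.01, 7.72, 7.46 and 10.1 CPM in DPBS, at 6.78, 7.47, 9.59 and 7.41 CPM in control ASO livers and at 11.8, 9.5, 9.99 and 9.2 CPM under the Upf3b-ASO. The treated livers tended to the upper end, and overlapped both groups through 1 liver in each. Smg9 had a log2 fold change of 0.38 ± 0.15 against control ASO (edgeR adjusted p = 0.12) and 0.29 ± 0.14 against DPBS (edgeR adjusted p = 0.27). It was 0.49 ± 0.13 against control ASO without control ASO replicate 3 (edgeR adjusted p = 0.021). Smg9 was called by limma with all livers against control ASO (adjusted p = 0.042 on log2(TPM + 1) and 0.044 on log2(TPM + 0.1)). At the transcript level, the coding Smg9-201 was at 7.17 to 9.63 CPM in Upf3b-ASO livers and at 4.21 to 6.82 CPM in the other 8. It did not pass the transcript test in edgeR (0.60 ± 0.19 against control ASO, adjusted p = 0.24) but did in DESeq2 (adjusted p = 0.033).

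Smg6, the endonuclease of the pathway, fell more than any other member but Upf3b. It was at 38.3, 31.9, 45.1 and 39.2 CPM in DPBS, at 36.7, 38.1, 42.9 and 33.2 CPM in control ASO livers and at 12, 11.6, 12.7 and 10.1 CPM under the Upf3b-ASO. The treated livers lay within a narrow range far under all others. The log2 fold change was -1.70 ± 0.12 against control ASO (69.2% lower; edgeR adjusted p = 3.8e-05) and -1.73 ± 0.12 against DPBS (edgeR adjusted p = 2.2e-05). Between control ASO and DPBS it was -0.03 ± 0.12. Every alternative run kept the direction and the call in both Upf3b-ASO comparisons.

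The fall was that of the coding transcript Smg6-201 (ENSMUST00000045281, 5848 bases, 19 exons, chr11:74925823-75164448, plus strand), which held 92.3% to 97.9% of the Smg6 counts of a liver. Smg6-201 was at 30.4 to 41.6 CPM in DPBS and control ASO livers and at 9.74 to 11.9 CPM in Upf3b-ASO livers. Its log2 fold change was -1.68 ± 0.12 against control ASO (edgeR adjusted p = 3.8e-04) and -1.73 ± 0.12 against DPBS (edgeR adjusted p = 2.7e-04). Transcript usage of Smg6 was not called (adjusted p = 1 in both comparisons). The best match of the Upf3b-ASO site in Smg6-201 had 6 mismatches (capitals), in coding exon 17 of 19.
Smg6-201 site: ACttGAatctatCGcc
Of tested genes, 90.6% held a match at least as good in a spliced transcript. Smg6 shares 126 exon bases with Srr on the opposite strand.

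Genes that fell with the Upf3b-ASO had a larger median span in the genome, and Smg6 is the longest member. Its span, introns included, is 238.6 kb, beside 9.0 to 112.4 kb for the other 9 members. Of the 275 tested genes of 200 kb or more, 76 (27.6%) fell and 1 rose against control ASO, and 97 (35.3%) fell and 0 rose against DPBS. Of the 4173 genes under 20 kb, which include Upf3a and Upf3b, 140 (3.35%) fell and 205 (4.91%) rose against control ASO. The share that fell was 4.55% from 20 to 50 kb, 8.15% from 50 to 100 kb and 14.4% from 100 to 200 kb, the class of Upf2 and Smg1. Between control ASO and DPBS, 1 of the 275 longest genes fell (0.364%). The median span was 53.9 kb for genes that fell against control ASO, 18.0 kb for those that rose and 21.9 kb for all tested. Span classes were chosen after the values were seen, and this is a description with no test. Whether span has a part in the fall of Smg6 was not tested.

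**Figure D4:**
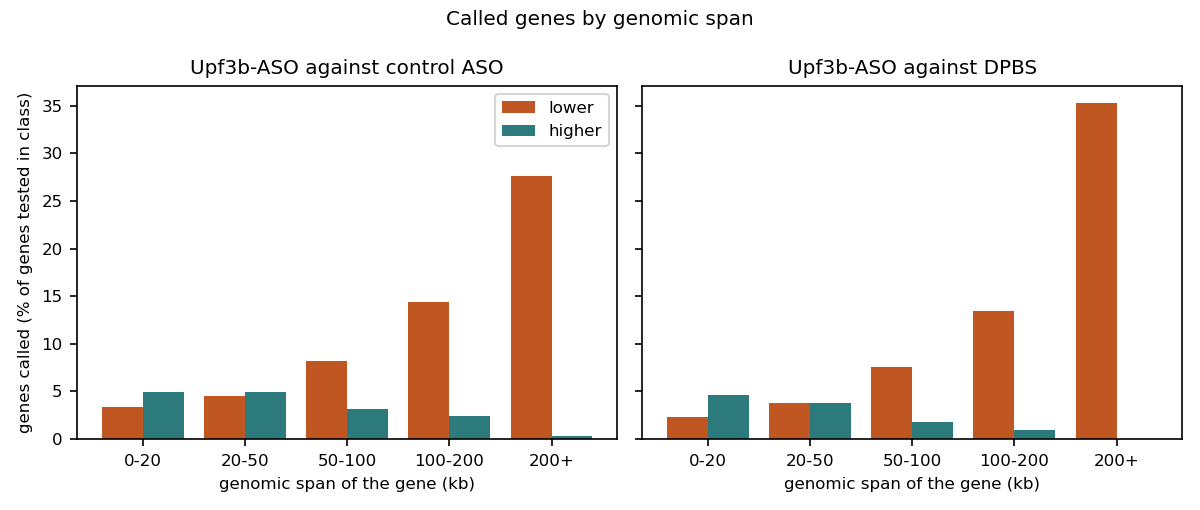
Percent of tested genes called lower or higher (y axis, from 0) by genomic span in kb (x axis), for Upf3b-ASO against control ASO (left) and against DPBS (right). The share called lower is 3.35% under 20 kb and 27.6% at 200 kb or more (the class of Smg6) on the left, and 2.35% and 35.3% on the right.

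Smg5, an adaptor that binds phosphorylated UPF1, was not called by edgeR with all livers. It was at 42.7, 42, 40.1 and 43.2 CPM in DPBS, at 38.6, 40.1, 40.7 and 40.1 CPM in control ASO livers and at 41.4, 46.1, 47.1 and 48.5 CPM under the Upf3b-ASO. The treated livers were all above the control ASO livers but overlapped DPBS. The log2 fold change was 0.20 ± 0.07 against control ASO (edgeR adjusted p = 0.097) and 0.12 ± 0.07 against DPBS (edgeR adjusted p = 0.33). Without control ASO replicate 3 it was 0.21 ± 0.06 against control ASO (edgeR adjusted p = 0.039), and DESeq2 called Smg5 with all livers (0.19, adjusted p = 0.04). With a transcript length offset the sign turned, to -0.07 ± 0.14 against control ASO (edgeR adjusted p = 0.79). The coding Smg5-201 was at 28.8 to 31.1 CPM in control ASO, 32 to 35.8 in DPBS and 32.6 to 40.8 in Upf3b-ASO livers, and did not pass in edgeR (0.37 ± 0.11 against control ASO, adjusted p = 0.19) but did in DESeq2 (adjusted p = 0.017).

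Gspt1, which encodes the release factor eRF3a, was not called at the gene level. It was at 74.4, 77.8, 81.8 and 85.9 CPM in DPBS, at 66.7, 69.1, 76 and 78.8 CPM in control ASO livers and at 68.8, 66.4, 72.8 and 80.7 CPM under the Upf3b-ASO. Both ASO groups reached lower values than DPBS, with overlap. Its log2 fold change was -0.01 ± 0.06 against control ASO (95% interval, -0.15 to 0.13; edgeR adjusted p = 0.94) and -0.15 ± 0.06 against DPBS (edgeR adjusted p = 0.18). Its 2 main coding transcripts differ at their 3′ ends. Gspt1-205 was at 32 to 43.3 CPM in DPBS, 24.5 to 33.4 in control ASO livers and 21.8 to 30.7 under the Upf3b-ASO, and differed from DPBS by -0.38 ± 0.12, which did not pass in edgeR (adjusted p = 0.24) but did in DESeq2 (adjusted p = 0.043). Gspt1-201 was at 32.9 to 48.7 CPM over all livers.

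At the transcript level, 29 of the 43 member transcripts had at least 10 counts in at least 4 livers. Upf3b-201, Smg6-201 and Upf2-201 were called against control ASO, where 0.792% of all 37101 transcripts tested were called (0.261% higher and 0.531% lower). Upf3b-201, Upf3b-202 and Smg6-201 were called against DPBS, where 0.779% were (0.243% higher and 0.536% lower). Upf3b-201 and Upf3b-202 met the count filter through untreated livers alone, where they were high. Their calls therefore cannot be weighed against the share over all transcripts. Between control ASO and DPBS, edgeR called 0 of all transcripts at adjusted p under 0.05, with 1531 at an unadjusted p under 0.05, and DESeq2 called 114, none of them of a member. In simulated data the transcript test recovered 30.3% of changes of 2 on the log2 scale and 3.6% of changes of 1. The gene test recovered 99.1% and 88.5%. The changed features were drawn at random from all those tested, so that these rates are not those of the abundant member transcripts. A transcript without a call may still have changed.

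**Figure D5:**
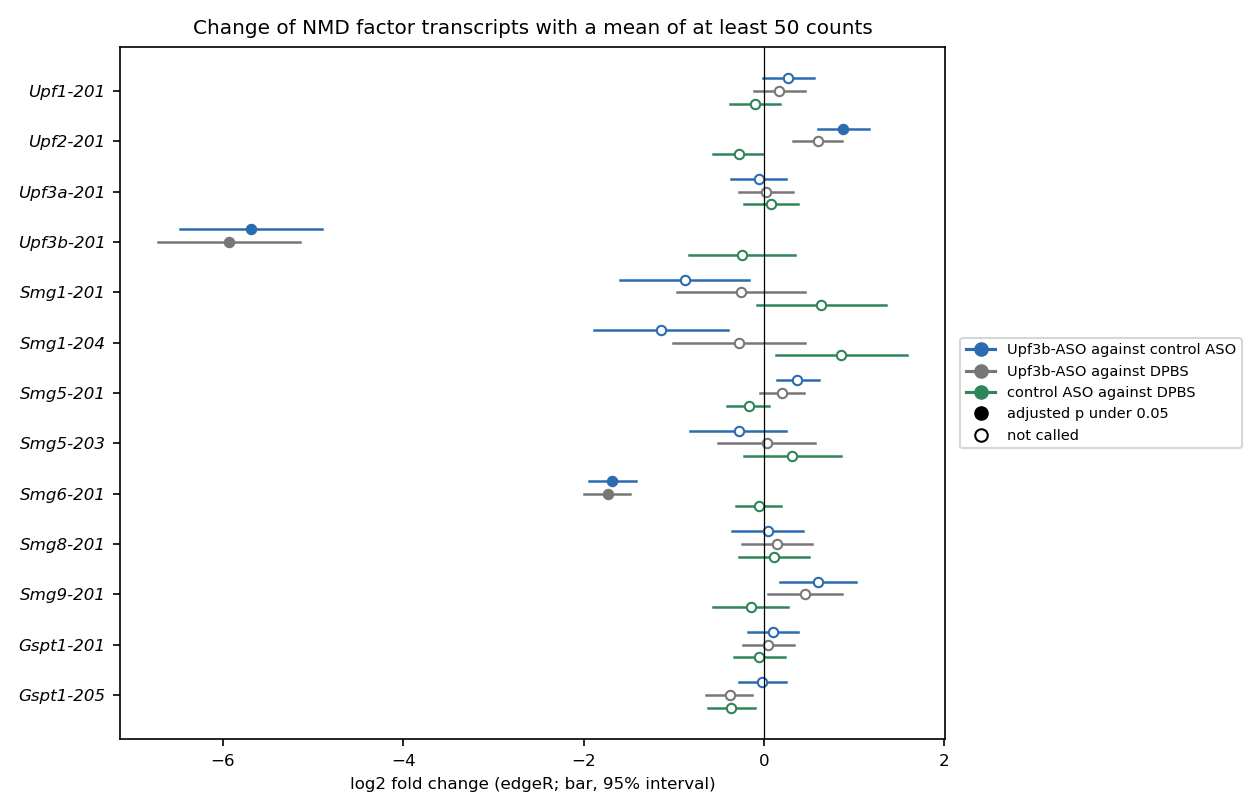
Log2 fold change (x axis) with 95% interval of the NMD factor transcripts with a mean of at least 50 counts per liver (y axis) in 3 comparisons, from edgeR; filled points have an adjusted p under 0.05. Upf3b-201 lies at -5.69 and -5.93, Smg6-201 at -1.68 and -1.73, and Upf2-201 at 0.88 against control ASO.

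The shares of member isoforms annotated as NMD substrates overlapped between the groups. Smg1-204, Smg5-202 and Smg6-202 carry this biotype. Smg5-202 held 10.7% ± 8.75 of the gene TPM in DPBS, 7.98% ± 8.04 in control ASO livers and 9.1% ± 2.42 under the Upf3b-ASO, and was at 0 in DPBS replicate 3 and control ASO replicate 3. Smg6-202 held 0.989% ± 1.14, 1.54% ± 1.78 and 1.35% ± 2.7, and was at 0 counts in 7 of 12 livers. For all 3 genes the treated livers overlapped both other groups, although Upf3b-ASO replicate 3 had the highest Smg6-202 share of any liver (5.4%). Of 1949 tested genes with an NMD-biotype transcript, 2.77% had higher shares in all treated than in all control ASO livers and 1.23% lower ones. Against DPBS livers these were 2.82% and 1.28%.

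Of 14 retained intron transcripts of the members, 8 were tested and edgeR called 0 in either Upf3b-ASO comparison. Of all transcripts tested only 0.792% were called against control ASO and 0.779% against DPBS, so that 0 of 8 is near this share. One of them, Smg1-206, had an unadjusted p under 0.05 (0.045 against control ASO), and DESeq2 called none. The leading coding transcripts of the 10 members had a median 3′ UTR of 896 bases, against 686 over the 17460 coding transcripts of tested genes. The latter include minor isoforms and leave out Smg8, so that the sets are not alike. Their 3′ UTR exceeded 1000 bases in 4 of 10 (38.9% of all), and 4 of 10 had an ATG in the 5′ UTR (49.9% of all). The longest 3′ UTR was that of Smg1-201, at 4233 bases, and none of the 10 had an exon junction more than 50 bases after the stop codon (0.613% of all). Lengths for Upf1-201 and Upf3a-201 come from gene models that differ in length from the quantified transcripts.

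No member passed the test of a difference between the sexes. Upf2 was at 29.6 CPM in treated females and 32 CPM in treated males (means of 2), against 18.4 and 17.6 CPM in control ASO females and males. Smg6 was at 11.8 and 11.4 CPM, against 37.4 and 38.1 CPM. The difference of the log2 fold change between males and females was 0.17 ± 0.18 for Upf2, -0.07 ± 0.24 for Smg6 and -0.51 ± 0.56 for Upf3b, and adjusted p-values of the 9 members were 0.59 to 0.99 (edgeR interaction test). Over all 8846 genes edgeR called 0 interactions, with 647 at an unadjusted p under 0.05.

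Further genes of the pathway were examined as a list of 20, of which 17 were tested. Only Pnrc2, a partner of the decapping machinery, was called, in both comparisons. Of all genes tested, 10.3% were called against control ASO and 8.93% against DPBS. It was at 30.5 to 38 CPM in DPBS, 29.2 to 36.3 in control ASO livers and 46.4 to 54.4 under the Upf3b-ASO. Pnrc2 had a log2 fold change of 0.58 ± 0.10 against control ASO (edgeR adjusted p = 0.0041) and 0.56 ± 0.10 against DPBS (edgeR adjusted p = 0.0049). The median of the 17 was -0.02 and 0.04. None was called between control ASO and DPBS (0.0113% of all genes). The NMD substrates Atf3 and Gadd45b, a stress-induced transcription factor and a stress sensor, were under the expression filter. Atf3 was at 1.13 to 1.91 CPM in DPBS and 1.06 to 5.38 CPM in Upf3b-ASO livers, and Gadd45b at 0.592 to 1.45 and 0.53 to 3.66 CPM. In control ASO replicate 3 they were at 348 and 211 CPM. The remaining livers of this group had 2.19 to 2.88 CPM of Atf3 and 1.49 to 1.81 CPM of Gadd45b.

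The genes whose levels were most like those of a changed member were found by Pearson's r of log2 CPM over the 12 livers after removal of the sex means. These livers share the treatment, so that the values are a description. For Upf3b they were Nfia (0.991), Lpp (0.990) and Plcb1 (0.989), and for Smg6 Clptm1 (0.993), Nfia (0.993) and Dpyd (0.992). Nfia encodes a transcription factor of the NFI family, and Dpyd the first enzyme of pyrimidine breakdown. Nfia, Lpp, Plcb1 and Dpyd span 346.1, 599.0, 689.2 and 870.8 kb, and Clptm1 33.5 kb. For Upf2 they were Coq8a (0.972), Cldn1 (0.962) and Slc44a1 (0.948), of which Cldn1 encodes a tight junction protein. Between members, r was 0.975 for Upf3b and Smg6, -0.884 for Upf2 and Upf3b and -0.885 for Upf2 and Smg6.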

How the data were processed

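Total liver RNA was made into TruSeq libraries and sequenced on an Illumina HiSeq. The authors quantified transcripts with Salmon 0.7.2 against Ensembl mouse cDNA (GRCm38) and deposited, per transcript, estimated counts (not whole where reads were shared) and TPM, which the authors scaled over all 92468 transcripts. Transcripts were joined to genes, symbols, biotypes and coordinates of GENCODE M21, which covered 98.1% of them. The joined transcripts held 97.51% to 99.26% of the counts of a liver but 79.7% to 95.91% of its TPM. A single unjoined transcript held 2.39% to 9.45% of TPM in DPBS, 3.88% to 8.83% in control ASO and 8.26% to 15.98% in Upf3b-ASO livers. The TPM of other transcripts, also at the filter, is lowered by this unequally between groups. The members and gene lists were chosen with earlier results of these data known.

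Counts were summed per gene, rounded and tested with edgeR 4.0.16 (quasi-likelihood, TMM, group and sex, 12 livers in 1 fit) for genes with TPM of at least 5 in at least 4 livers. Transcripts with at least 10 counts in 4 livers were tested likewise, and their usage with diffSpliceDGE. All p-values were adjusted by Benjamini-Hochberg over all features tested, and one under 0.05 was called. The p-values for transcripts leave out the uncertainty of assigning reads to isoforms. DESeq2 1.42.0, limma 3.58.1 on log2 TPM with 1 or 0.1 added, other filters, scalings and covariates, and leaving out each liver were alternatives. Each liver was counted as 1 animal, and no pair of replicates agreed within sampling noise.

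In the text stand all 10 members, their transcripts with at least 10% of the gene TPM in a group, with the NMD or retained intron biotype or with a call (given singly or by count and range), the other NMD genes called, Atf3 and Gadd45b, and for each called member the 3 genes of highest r (log2 of CPM + 1). ASO sites were searched in spliced sequences of the reference transcripts on the sense strand, without gaps, counting mismatches. Reads were counted without molecular identifiers. A gene withheld from this work and Upf1-ASO livers were not analysed here. Tests were tried on simulated counts.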

Additional observations from a re-analysis of the deposited data

Results flagged for a closer look

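In 3 of 51 groups of 4 livers examined among the member genes and transcripts, 1 liver lay far from the other 3 (its gap to the nearest, as a share of the range, passed Dixon's 95% critical value, which chance alone passes in about 1 in 20 groups). Smg1 was at 430 CPM in control ASO replicate 3, with the other 3 control ASO livers at 128 to 142 CPM. Upf3b-202 was at 1.43 CPM in DPBS replicate 3, with the other DPBS livers at 0.732 to 0.833 CPM. The share of Smg6 TPM on the NMD-biotype transcript Smg6-202 was 5.4% in Upf3b-ASO replicate 3 and 0 in the other Upf3b-ASO livers, and it rested on 7.56 estimated counts.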

How the results depend on the processing

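Of the values of single genes and transcripts under alternatives, 1658 kept their side of the threshold, and 17 lost and 15 gained a call. The sign changed in 88 values, called in neither fit, among them Smg1-202 against control ASO (-1.19, and 0.31 without control ASO replicate 3), and in no value called in either. The gene-level calls of Upf3b and Smg6 in both Upf3b-ASO comparisons held under all alternatives.

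Genes called against control ASO (910) numbered 1584 with DESeq2, 566 with limma on log2(TPM + 0.1), 519 without sex, 363 with the 2 groups alone, 212 at the cutoffs of the study, 339 at adjusted p under 0.01, and 434 to 2168 without 1 liver, the highest without control ASO replicate 3. Members called were then 5 with DESeq2, 3 to 6 without 1 liver, and 2 at the fewest over the other alternatives. Against DPBS (790) the same numbers were 1274, 364 (388 on log2(TPM + 1)), 477, 2478, 183, 324 and 400 to 555, with 3 members throughout the last. Control ASO against DPBS (1) gave 43 with DESeq2, 15 at the cutoffs of the study, 0 with limma, 2 groups, the block, a length offset or adjusted p under 0.01, and 0 to 5 without 1 liver. The interaction with sex gave 1 gene without the TPM filter.

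Transcripts called against control ASO (294) numbered 176 with 1 count, 545 with 50 counts, 1659 with DESeq2 (6 of members), 149 without sex and 83 to 791 without 1 liver. Against DPBS (289) they were 166, 467, 1304, 178 and 84 to 176. Control ASO against DPBS gave 114 with DESeq2. Usage was called in 70 genes with Simes p (44 with the F test against control ASO), and 0 members in either comparison with Simes p or at 50 counts, where Upf3b had 1 transcript left. The Smg5 share on the NMD biotype in Upf3b-ASO livers was 2.9% of counts.

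The replicate numbers of the labels share a sex and nothing else stated. With group and sex removed, same-numbered livers correlated by -0.111 to 0.161 and others by -0.161 to 0.111. The replicate block gave 699 and 606 genes with the 3 members called, and 106 and 105 transcripts, without Upf2-201 (adjusted p = 0.053 against control ASO) and Upf3b-202 (0.11 against DPBS), and changed no other member call.

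Upf3b values of treated livers rest on 10.2 to 22 counts each, and isoforms with few reads of their own rest on the model that divides shared reads.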
